A study of Homo sapiens with 2 samples.

Results

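Long intergenic RNAs with LINC symbols were followed in parental SKOV3 cells and in an olaparib-resistant derivative. They were taken from the deposited transcript table as all transcripts whose gene symbol is LINC followed by 5 digits, on chromosomes 1 to 22, without LINC00467. This rule gave 1096 of 47892 transcripts, which belong to 434 of 16978 genes. SKOV3 is a human ovarian cancer cell line with a wild-type genotype label. The resistant line, labelled SKOV3_OR, was kept in the PARP inhibitor olaparib continuously for at least 3 months, and the parental line had no treatment. The labels do not say whether the resistant line is a clone or a pool. Each group has 1 ribosomal RNA-depleted library of total RNA, so no difference below has a replicate check, and no test was made.

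LINC symbols are given to long non-coding RNA genes that lie between protein-coding genes and have no other name. Such RNAs are capped, usually spliced and often present at low levels, and many are made in few cell types. Some act on neighbouring genes or chromatin from the place where they are made, some bind proteins or microRNAs, and a few carry small open reading frames that are translated. For most LINC genes no function is known.

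The promoter windows of 7 LINC genes are shown first, because the results turn on these genes. LINC01578, LINC02593 and LINC00963 had the highest levels, LINC00847 and LINC01355 were at least 2-fold higher in the resistant library, and LINC00963, LINC01089 and LINC01569 at least 2-fold lower. Each window runs 5′ to 3′ from 250 bases before to 50 after the gene start in RefSeq (GRCh38.p14). Capitals mark, on either strand and with overlapping copies merged, the TATA box letters TATAAA, the SP1-type letters GGGCGG, the CCAAT box and the AP-1 letters TGANTCA. The ETS-type letters CCGGAAGT, the NRF1 motif and the NF-kappaB motif were also searched and were not in these windows.
LINC01578 (chr15:92882593-92882892, + strand): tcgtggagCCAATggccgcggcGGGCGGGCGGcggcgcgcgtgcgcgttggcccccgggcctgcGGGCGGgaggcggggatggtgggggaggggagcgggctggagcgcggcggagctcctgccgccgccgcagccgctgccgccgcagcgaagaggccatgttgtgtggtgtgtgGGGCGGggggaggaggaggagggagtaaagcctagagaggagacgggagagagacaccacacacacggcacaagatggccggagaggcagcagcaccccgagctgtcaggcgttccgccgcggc
LINC02593 (chr1:919643-919942, - strand): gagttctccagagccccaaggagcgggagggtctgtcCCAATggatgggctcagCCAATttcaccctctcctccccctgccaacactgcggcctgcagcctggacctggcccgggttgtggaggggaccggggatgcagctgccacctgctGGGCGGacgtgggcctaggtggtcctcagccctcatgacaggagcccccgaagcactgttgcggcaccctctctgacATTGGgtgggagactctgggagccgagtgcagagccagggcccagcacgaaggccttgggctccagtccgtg
LINC00963 (chr9:129488410-129488709, + strand): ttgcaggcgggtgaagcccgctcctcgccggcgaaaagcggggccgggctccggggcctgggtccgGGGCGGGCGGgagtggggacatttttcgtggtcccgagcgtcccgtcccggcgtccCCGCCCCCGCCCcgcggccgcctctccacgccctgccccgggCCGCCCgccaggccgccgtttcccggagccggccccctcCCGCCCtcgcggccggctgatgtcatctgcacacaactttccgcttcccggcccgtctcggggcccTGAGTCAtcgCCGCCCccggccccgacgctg
LINC00847 (chr5:180830707-180831006, + strand): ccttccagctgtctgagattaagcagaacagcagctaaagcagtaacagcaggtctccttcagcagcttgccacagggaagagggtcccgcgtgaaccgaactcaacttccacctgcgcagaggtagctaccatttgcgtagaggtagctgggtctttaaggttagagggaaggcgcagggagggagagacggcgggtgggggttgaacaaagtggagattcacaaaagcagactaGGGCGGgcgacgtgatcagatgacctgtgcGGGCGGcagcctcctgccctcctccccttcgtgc
LINC01355 (chr1:23285469-23285768, - strand): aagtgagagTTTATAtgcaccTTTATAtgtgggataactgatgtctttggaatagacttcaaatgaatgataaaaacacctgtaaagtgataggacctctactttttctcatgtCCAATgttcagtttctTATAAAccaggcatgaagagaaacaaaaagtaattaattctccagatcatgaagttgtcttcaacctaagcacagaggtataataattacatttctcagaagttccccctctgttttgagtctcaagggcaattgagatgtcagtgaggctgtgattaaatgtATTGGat
LINC01089 (chr12:121802897-121803196, - strand): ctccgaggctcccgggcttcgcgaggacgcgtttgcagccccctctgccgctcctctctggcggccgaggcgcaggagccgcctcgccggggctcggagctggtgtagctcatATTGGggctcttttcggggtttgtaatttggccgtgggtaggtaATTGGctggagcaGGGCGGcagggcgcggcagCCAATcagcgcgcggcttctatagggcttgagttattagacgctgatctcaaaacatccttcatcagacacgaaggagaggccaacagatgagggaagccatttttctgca
LINC01569 (chr16:4253740-4254039, - strand): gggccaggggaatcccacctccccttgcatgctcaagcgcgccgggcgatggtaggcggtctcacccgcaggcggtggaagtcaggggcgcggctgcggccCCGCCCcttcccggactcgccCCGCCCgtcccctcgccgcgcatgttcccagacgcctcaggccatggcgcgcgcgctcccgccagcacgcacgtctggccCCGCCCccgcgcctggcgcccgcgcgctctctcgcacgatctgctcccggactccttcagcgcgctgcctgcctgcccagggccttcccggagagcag
The LINC01578 window is listed in RefSeq under the current symbol CHASERR. A transcript of the table started within 100 nucleotides of the RefSeq start for LINC01578, LINC00963, LINC00847, LINC01089 and LINC01569. The nearest start lay 225 nucleotides away for LINC01355 and 1324 nucleotides away for LINC02593, so these windows need not be the promoters of the listed transcripts.

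The table gives 1 normalized value per transcript and library in a unit that its header does not name, called the listed value here. A gene's value is the sum over its transcripts. Counts of isoforms that were higher or lower include isoforms with values below 0.1, which cannot be ordered. Such counts are no support for a gene's direction. Log2 ratios compare resistant with parental cells after adding a pseudocount of 1 to each value, which understates differences at low levels. A gene whose 2 values average 1 or more is called expressed. Sequencing depth is unknown. In bulk RNA, fewer cells that make a transcript and less of it per cell cannot be told apart.

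The label was checked against the loci. In GENCODE release 29, which uses GRCh38, 433 of the 434 genes were found by identifier, and 360 of them are typed as lincRNA. Another 27 are typed as antisense, 27 as processed transcript and 10 as transcribed unprocessed pseudogene. The loci of 61 genes overlapped a protein-coding gene of that annotation, 37 on the opposite and 24 on the same strand. Within the table itself, 138 of the 1096 transcripts (12.6%), from 62 genes, overlapped the locus of another gene with a symbol. Most, but not all, members are therefore intergenic. No source used here gives the strand used in counting, so reads of overlapping genes may be shared.

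The cells were checked against marker genes. KRT7, KRT8, KRT18 and ERBB2 of 8 ovarian carcinoma markers were expressed in the table, PAX8 and EPCAM were below the threshold, and MUC16 and WT1 were not analysed here. Of 11 immune, endothelial and fibroblast markers, COL1A1 was the one listed, at 0.203 in resistant against 0.198 in parental cells. The whole table summed to 47632 in resistant against 46879 in parental cells, and 7228 and 6148 transcripts reached a value of 1.

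Most LINC genes were hardly detected. Of the 434 genes, 65 (14.98%) were expressed, against 34.0% of all genes in the table. A mean of at least 5 was reached by 11 of them, and 54 lay between 1 and 5. Another 146 genes lay between 0.1 and 1, and 223 lay below 0.1. The median mean was 0.0880 for LINC genes and 0.422 for all genes. All LINC transcripts together made up 0.623% of the resistant and 0.651% of the parental table, with sums of 296.8 and 305.2.

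The 12 genes with the largest means held 41.4% of the LINC sum in resistant against 44.4% in parental cells. LINC01578, whose current symbol is CHASERR, stood first, with 47.4 for resistant and 55.8 for parental cells, a log2 ratio of -0.23. It lies beside CHD2, which encodes a chromatin remodeller, and its mouse counterpart is known to hold down Chd2 from the same chromosome. In GENCODE release 29 its locus also overlaps the protein-coding gene AC013394.1 on the same strand, so its reads may be shared. LINC01578 alone carried 15.98% of the LINC sum in resistant against 18.3% in parental cells. The listed CHD2 transcripts summed to 6.68 and 7.81 (log2 ratio -0.20).

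LINC02593 was second, at 22.8 in resistant against 11.9 in parental cells (log2 ratio 0.88), from 1 transcript with a single exon. LINC00963, first described in prostate cancer cells that had become independent of androgen, had 3.79 against 12.1. LINC00662 had 7.51 against 5.86 (0.31) and LINC01836 4.14 against 8.78 (-0.93). LINC01089 had 3.76 against 9.0004, LINC02210 7.49 against 4.84 (0.54) and LINC00235 4.33 against 7.53 (-0.68). The remaining genes were LINC00888 (6.08 against 5.21), LINC00863 (4.67 against 6.14), LINC00847 (7.38 against 2.77) and LINC01003 (3.51 against 5.54). Of these 12, 5 were higher and 7 lower in the resistant library.

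**Figure D1:**
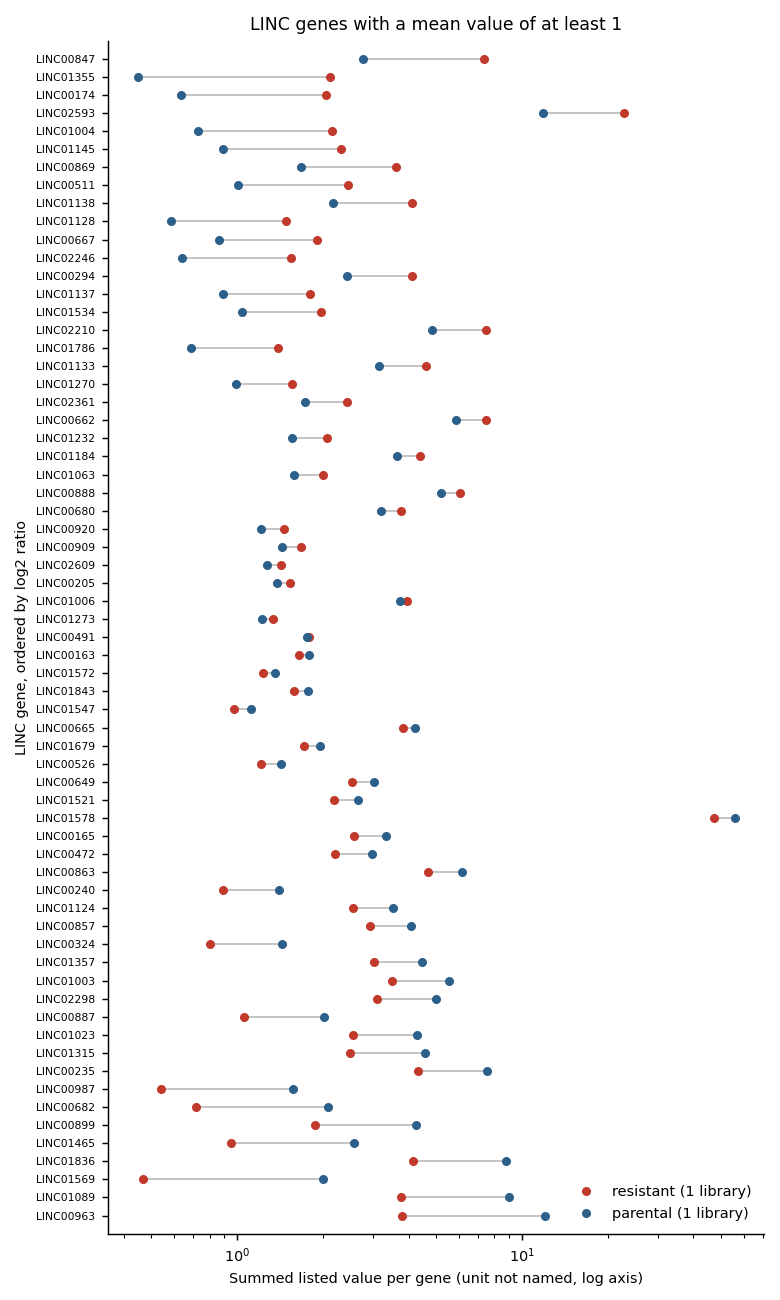
Summed listed value (log axis, unit not named) of the 65 expressed LINC genes in the resistant (red) and parental (blue) library, 1 library each, ordered by log2 ratio. LINC00847 is at the top with 7.38 against 2.77, LINC00963 at the bottom with 3.79 against 12.1, and LINC01578 lies far to the right of all others.

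Between the libraries, expressed LINC genes were split evenly around 0, with 33 higher and 32 lower in the resistant library. Their median log2 ratio was 0.019, and the median over all 5767 expressed genes was 0.16. At least 2-fold higher were 2 of the 65, LINC00847 and LINC01355, against a background of 8.5% of all expressed genes. At least 2-fold lower were 3, LINC00963, LINC01089 and LINC01569, against a background of 4.37%. As shares of the 65 these are 3.08% and 4.62%, so the share lower is near the background and the share higher rests on a pair of genes. Within 1.5-fold were 43 LINC genes (66.2%), and 65.5% of all expressed genes. Of the 65, 39 lay under the median of all expressed genes. With resistant values divided by the median ratio over all expressed genes, 0 of 61 LINC genes were at least 2-fold higher and 5 lower, and LINC00847 and LINC01355 both had 0.96. The background was then 5.58% higher and 6.29% lower of 5504 genes. The counts also depend on the pseudocount, with 10 higher and 8 lower at a pseudocount of 0.1 (background 16.6% and 7.53%) and none at 5 (1.8% and 1.18%).

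**Figure D2:**
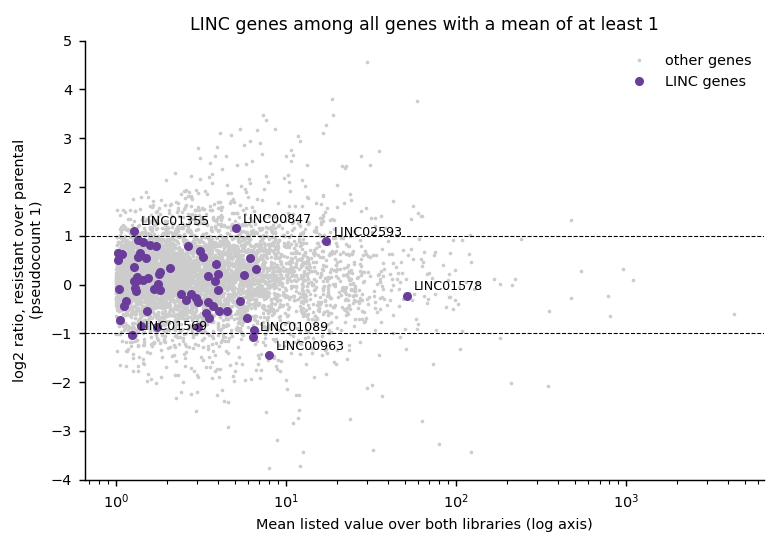
Log2 ratio (resistant over parental, pseudocount 1) against mean listed value (log axis) for the 65 expressed LINC genes (purple) and the other expressed genes (grey), with dashed lines at 2-fold. The LINC genes lie within the cloud of other genes, with LINC00847 and LINC01355 above and LINC00963, LINC01089 and LINC01569 below the lines; 1 other gene lies outside the plotted range.

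LINC00847 (chromosome 5, 180830326 to 180839742) had the highest log2 ratio, 1.16, and 94.1% of all expressed genes had a lower one. Of its 9 isoforms 7 were higher in the resistant library. LINC00847-215 carried most of the difference, with 3.71 in resistant against 0.0235 in parental cells, and LINC00847-214 had 1.54 against 0.318. LINC00847-208, the largest parental isoform, went the other way, with 0.470 against 1.12. The locus of 7 of the 9 isoforms overlapped HEIH, a long non-coding RNA described in liver cancer, which had 5.54 against 6.74. Without those isoforms the LINC00847 log2 ratio was -0.079, so its direction rests on transcripts that share a locus with HEIH.

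LINC01355 (chromosome 1, 23281307 to 23287488), which lies near HNRNPR, had 2.12 in resistant against 0.447 in parental cells (log2 ratio 1.11). All 4 isoforms were higher in the resistant library. LINC01355-201, a single-exon transcript, had 0.742 against 0.364, and LINC01355-206 had 0.825 against 0.0815. LINC01355-205 had 0.420 against 0.000922, and with the isoform of the largest mean alone the gene's log2 ratio was 0.35. The gene's log2 ratio was 0.83 without transcripts whose deposited fold change departs from the ratio of values.

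The next of the 10 highest were between 0.64 and 0.90 on the log2 scale. LINC00174 had 2.06 in resistant against 0.634 in parental cells (0.90), and 7 of its 9 isoforms were higher. Of those 9, 6 overlapped TPST1, a tyrosine sulfotransferase gene on the opposite strand, which had 3.11 against 0.854 (1.15). Without those 6 isoforms the LINC00174 log2 ratio was 0.52, and with the isoform of the largest mean alone it was 0.25. LINC01004, beside KMT2E, had 2.16 against 0.727 (0.87), with all 3 isoforms higher. By the authors' fold changes, 2 of these 3, LINC01004-201 and LINC01004-202, had a count of 0 in the parental library. The LINC01004 log2 ratio was 0.34 without transcripts whose deposited fold change departs from the ratio of values.

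LINC01145 (2.31 against 0.895, log2 ratio 0.80), LINC00869 (3.62 against 1.67, 0.79) and LINC01138 (4.12 against 2.17, 0.69) were also among the 10 highest. All 3 lie on chromosome 1 with a PPIAL4 gene, of a family of near-identical copies, as the nearest protein-coding gene. The LINC01138 locus overlaps PPIAL4G on the same strand, so reads may be shared there. LINC01145 and LINC00869 lie 25758 and 22568 bases from theirs. Whether the LINC loci have copies that share reads was not tested, so these values are uncertain. The LINC01145 log2 ratio was 0.15 with discordant transcripts left out (those whose deposited fold change departs from the ratio of values) and 1.17 with values at a count of 0 set to 0. LINC01138 is known from liver cancer, where its RNA was reported to bind PRMT5. LINC00511, reported to bind the chromatin regulator EZH2, had 2.46 against 1.01 (0.78), and 13 of its 19 isoforms were higher. Of these 19, 10 had a count of 0 in 1 library. LINC01128 had 1.48 against 0.587 (0.64).

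LINC00963 (chromosome 9, 129476946 to 129513686) was the lowest, with a log2 ratio of -1.45, and 1.79% of expressed genes had a lower one. Its 3 largest isoforms were all lower in the resistant library. LINC00963-244 had 0.693 against 2.86, LINC00963-202 1.02 against 2.65, and LINC00963-243 0.222 against 2.62. Of the 31 isoforms 18 were lower and 13 higher, and none overlapped another named gene. A count of 0 in 1 library was found for 16 of the 31. With the isoform of the largest mean alone the log2 ratio was -0.85, under 2-fold.

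LINC01089 (chromosome 12, 121795267 to 121803906), also called LIMT, is known from mammary cells as a transcript that EGF represses and that limits metastasis. Its log2 ratio was -1.07, and all 8 isoforms were lower in the resistant library. LINC01089-208 had 1.13 against 2.16, LINC01089-212 0.808 against 2.13, and LINC01089-210 1.31 against 1.65. All 8 overlapped the locus of RHOF, whose listed transcripts were at 0.0165 and 0.0438. A count of 0 in the resistant library was found for 4 of the 8. The LINC01089 log2 ratio was -0.57 with the isoform of the largest mean alone and -0.69 with discordant transcripts left out, both under 2-fold.

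LINC01569 (chromosome 16, 4243943 to 4253817) had 0.469 in resistant against 2.01 in parental cells (-1.03). LINC01569-208 had 0.0917 against 1.13, and LINC01569-205 had 0.188 against 0.478. With LINC01569-208 alone the log2 ratio was -0.96, just under 2-fold. The other 7 of the 10 lowest had log2 ratios between -0.93 and -0.68. LINC01836 had 4 of 5 isoforms lower, with LINC01836-202 at 1.95 against 4.13. LINC01465 had 0.951 against 2.57 (-0.87), LINC00899 1.88 against 4.25 (-0.87) and LINC00682 0.718 against 2.08 (-0.84). LINC00987 had 0.540 against 1.57 (-0.74), and LINC01315 had 2.50 against 4.59 (-0.68) with all 4 isoforms lower.

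A list of 26 LINC genes described in cancer or as the source of a peptide was looked up. Values were found for 17, and 9 were not analysed here. Of the 17, 11 were expressed, with a median log2 ratio of 0.091, and none was at least 2-fold higher while LINC00963 and LINC01089 were at least 2-fold lower (background 8.5% and 4.37%). LINC01133, which binds the splicing factor SRSF6 in colorectal cancer cells, had 4.59 in resistant against 3.15 in parental cells (0.43). LINC00665, which encodes a small peptide described in breast cancer, had 3.81 against 4.21 (-0.11). LINC00857 had 2.93 against 4.06 (-0.36), LINC00472 2.20 against 2.98 (-0.32) and LINC00205 1.53 against 1.38 (0.091). All 3 signs turned with discordant transcripts left out, to 0.82, 0.031 and -0.10, so no direction is read for them.

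The other 6 of that list lay below the threshold. LINC00339 had 0.956 in resistant against 0.809 in parental cells, and LINC01503, driven by a super-enhancer in squamous carcinoma, had 0.730 against 0.731. LINC00958 had 0.0926 against 0.142, LINC00707 0.0932 against 0.0126 and LINC00839 0.0112 against 0.0590. LINC01116, near the HOXD genes, had 0.000219 against 0.0194. At such values no order between the libraries is read.

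Isoform make-up differed between the libraries in some members whose gene sums differed by less than 2-fold. Among the 65 expressed genes 16 have 1 listed transcript and 49 have more. In 23 of the 49 the largest isoform was not the same transcript in both libraries. The shift of isoform shares, the sum of gains in share between the libraries, had a median of 25.8 percentage points over the 49 genes and 20.5 over all 5032 expressed genes with several transcripts. It was at least 50 points in 7 LINC genes (14.3%) and in 7.97% of all such genes. The share was 14.8% for genes with -AS symbols, 18.2% for host genes of small RNAs and 0% for genes with -DT symbols, with medians of 24.2, 25.5 and 14.0 points. LINC genes had a median of 6 transcripts and all such genes one of 5.

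LINC00857, described in lung cancer cells, had the largest shift, 83.1 percentage points, at a gene log2 ratio of -0.36. LINC00857-201 (chromosome 10, 80207710 to 80219657) had 0.0917 in resistant against 2.89 in parental cells and went from 71.0% of the parental to 3.13% of the resistant gene value. LINC00857-204, which spans nearly the same locus (80207628 to 80219641), had 2.65 against 0.287 and went from 7.07% to 90.2%. In listed value the pair thus exchanged places while the gene sum differed by less than 2-fold. LINC00857-201 had a count of 0 in the resistant library. How reads were divided between these overlapping isoforms was not tested.

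LINC00205 showed a similar exchange of listed values at a level gene sum, with a shift of 71.6 percentage points. LINC00205-201 had 0.131 in resistant against 1.10 in parental cells, and LINC00205-203 had 1.03 against 0.212. LINC01128 shifted by 78.0 points: LINC01128-226 had 0.651 against 0.0125, LINC01128-221 0.575 against 0.0632, and LINC01128-210 0.00383 against 0.346. By the authors' fold changes, LINC01128-221 had a count of 0 in the parental and LINC01128-210 in the resistant library. Of the 10 LINC01128 isoforms, 6 had a count of 0 in 1 library. LINC01270 (73.0 points), LINC00847 (63.7), LINC01145 (62.1) and LINC00667 (56.7) were the others past 50 points. LINC01145-206, the largest resistant isoform of LINC01145, also had a count of 0 in the parental library. Of the 7 genes, 6 had a gene difference under 2-fold.

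In LINC01578 the retained-intron transcript LINC01578-202 was the largest in both libraries, with 22.2 in resistant against 18.4 in parental cells. The 5-exon transcript LINC01578-209 had 2.41 against 11.3, the lowest log2 ratio (-1.85) among the LINC transcripts with a mean of at least 1. LINC01578-203 went the other way with 8.34 against 5.65. Of the gene's 10 isoforms 5 were higher and 5 lower.

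**Figure D3:**
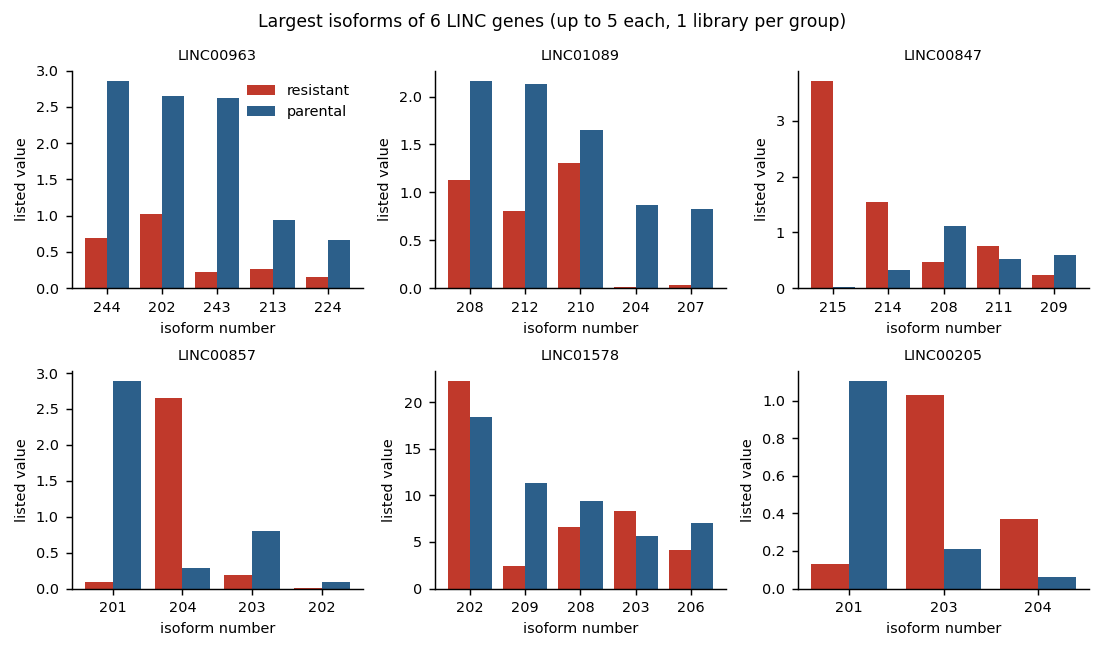
Listed values of the largest isoforms (up to 5, numbered as in the transcript name) of 6 LINC genes in the resistant (red) and parental (blue) library, 1 library each, with bars from 0. All LINC01089 isoforms shown are lower in the resistant library, whereas LINC00857-201 with LINC00857-204, and LINC00205-201 with LINC00205-203, exchange places in listed value. How reads were divided between isoforms was not tested.

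Among single transcripts, 56 LINC transcripts of 42 genes had a mean of at least 1. At least 2-fold higher were 3 of them, LINC00847-215, LINC00857-204 and LINC00869-207 (1.71 against 0.322), beside a background of 11.8% of the 6711 such transcripts. At least 2-fold lower were 5, beside a background of 7.42%: LINC01578-209, LINC00857-201, LINC00963-243, LINC00963-244 and LINC00899-202 (0.799 against 2.79). Their median log2 ratio was -0.19, and that of all such transcripts was 0.15.

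By chromosome, the LINC genes that were higher in the resistant library were most often on chromosome 1. Of its 11 expressed LINC genes 10 had a log2 ratio above 0, with a median of 0.64, while the 612 expressed genes of chromosome 1 had a median of 0.18. LINC01357 was the exception, with 3.02 in resistant against 4.47 in parental cells (-0.44). On chromosome 21, 5 of 7 expressed LINC genes were below 0 (median -0.10), and the 75 expressed genes there had a median of 0.19. All 3 on chromosome 22 were below 0 (median -0.68, all genes 0.083). These counts are small, and 3 of the chromosome 1 genes are those beside PPIAL4 copies.

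Expressed LINC genes lay closer to coding genes than the others. In GENCODE release 29 the median distance to the nearest protein-coding gene was 6897 bases for the 65 expressed and 16981 bases for the 369 other LINC genes. A coding gene on the opposite strand started within 1000 bases of 11 expressed members (16.9%) and of 27 others (7.32%). For 6 of these 11 pairs the coding gene's listed transcripts also had a mean of at least 1, and in 4 of the 6 both had the same sign. Of all 5767 expressed genes 3568 were above 0, so many unrelated pairs share a sign and no link is read from this count.

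The pairs with the same sign were LINC01137 (1.80 in the resistant, 0.894 in the parental library) with ZC3H12A (3.87 and 2.01), LINC01184 (4.40 and 3.63) with SLC12A2 (1.47 and 0.577), LINC01006 (3.96 and 3.72) with RNF32 (1.77 and 1.16), and LINC00649 (2.53 and 3.03) with ATP5PO (3.58 and 5.06). LINC00235 and CAPN15 went in opposite directions, at 4.33 and 7.53 for the former and 2.68 and 1.91 for the latter. LINC01521 (2.19 and 2.65) stood beside PATZ1 at 1.39 and 1.34. The start of LINC01089 faces that of SETD1B, which was not analysed here.

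Promoter windows were found in RefSeq for 300 of the 434 genes, 55 of them expressed. CpG observed over expected is the number of CG pairs relative to that from the C and G content. Its median was 0.824 for expressed LINC genes and 0.294 for the 140 with a mean below 0.1, and it was 0.580 over all 34961 promoter windows on chromosomes 1 to 22 and X. Median GC content was 68.3% for expressed LINC genes, 50.2% for those below 0.1 and 58.7% over all windows. A value of at least 0.6 was held by 36 of the 55 expressed genes (65.5%) and 23 of the 140 (16.4%). A listed transcript started within 100 nucleotides of the RefSeq start for 48 of the 55 and for 81 of the 140. Windows of the genes below 0.1 thus lay less often at a listed start and need not be the promoters of the listed transcripts. The contrast was not repeated without such windows.

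Motif content followed the same split. GGGCGG, the letters bound by SP1-type factors, was found on either strand in 78.2% of windows of expressed LINC genes, 23.6% of those below 0.1 and 45.03% of all windows. TGANTCA, the letters of AP-1 sites, was in 2 of the 55 (3.64%), in 16.4% of those below 0.1 and in 7.68% of all. CCGGAAGT was in 9.09% of expressed, 0.714% of those below 0.1 and 4.14% of all windows. TATAAA was in 9.09%, 15% and 11.5%, and the CCAAT box was in 43.6%, 37.1% and 34.6%, the NRF1 motif in 1.82%, 0% and 1.24%, and the NF-kappaB motif in none of the LINC windows and 0.192% of all. The SP1-type, ETS-type and NRF1 motifs are rich in G and C, and TATAAA and TGANTCA are rich in A and T. Shares of both kinds can move with GC content, which was not adjusted for, and a match is no evidence of binding. The limit on windows away from a listed start holds for these shares too.

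By direction between the libraries, median CpG observed over expected was 0.826 for the 25 expressed genes with a window and a log2 ratio above 0, and 0.803 for the 30 below 0. GGGCGG was in 19 of the 25 and 24 of the 30. Among the 10 highest genes, 7 had a window, with a median of 0.786 and 4 at 0.6 or more, and among the 10 lowest the median was 0.897 with 9 at 0.6 or more. TGANTCA was in none of the 7 and in 2 of the 10. These differences were not tested. Of the windows printed above, LINC01355 has a GC content of 35.3%, no CG pair and TATAAA on both strands, and LINC00963 has 78.0% GC and a CpG value of 0.960.

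**Figure D4:**
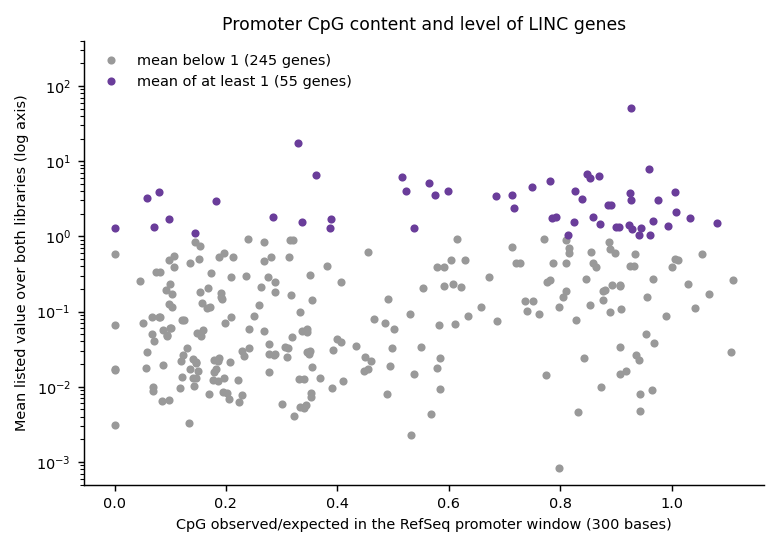
Mean listed value over both libraries (log axis) against CpG observed over expected in the RefSeq promoter window for 300 LINC genes, each point a gene, with expressed genes in purple. Expressed genes gather at high CpG values (median 0.824), and genes below 0.1 are mostly at low ones (median 0.294). Windows of genes below 0.1 lie less often at the start of a listed transcript.

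Each transcript also carries a log2 fold change of resistant over parental cells and an adjusted p-value from the authors, whose test on 2 libraries is not named in the sources used here. By the authors' deposited table, 330 LINC transcripts had an adjusted p below 0.05 and a positive fold change (30.1%), where the background is 23.6% of all transcripts. Another 357 had a negative one (32.6%), where the background is 22.3%. Isoforms were called in both directions in 26 of the 49 expressed LINC genes with several transcripts (53.1%) and in 37.3% of all such genes, at a median of 6 and 5 transcripts. Of the 687 called LINC transcripts, 665 (96.8%) had a mean listed value below 1, near the 94.9% of all LINC transcripts, called or not. Over all genes, 88.9% of called transcripts lay below 1.

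Those fold changes rest on counts that can be worked back from them. A constant of 0.114 for the resistant and 0.136 for the parental library makes the extreme fold changes ratios of whole numbers, and identifies transcripts with a count of 0 in 1 library to within 0.002 of a whole count. By this, 279 LINC transcripts had a count of 0 in resistant against 272 in parental cells, together 50.3%, against 22.4% of all transcripts. By level, the LINC and overall shares were 69.4% and 49.96% below a mean of 0.1, 21.7% and 10.2% between 0.1 and 1, and 1.79% and 1.71% at 1 or more. Of the 687 called LINC transcripts 68.1% were of this kind, and of all called transcripts 40.4%. Without a count of 0, 219 of 545 LINC transcripts (40.2%) were called, beside 35.2% of all such transcripts.

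No LINC transcript was listed at 0 in either library, although 551 had such a count. In the resistant library the listed value beside a count of 0 was a median 1.85% of the parental value and never under 1.001%, and in the parental library a median 15.8% of the resistant value. Ratios of listed values for such transcripts, among them LINC00857-201, rest on these values, which were not always small. In the parental library they reached up to 445% of the resistant value, and listed values up to 0.326. LINC01145-204 had 0.206 in resistant against 0.255 in parental cells, with a parental count of 0 and a deposited log2 fold change of 11.96. Of the called LINC transcripts, 16 had a fold change of opposite sign to their listed values. For the 346 LINC transcripts with a count of 0 in 1 library and over 20 in the other, the larger count followed the listed value times locus length, introns included, within 0.3 on the log2 scale in 100% of cases. By spliced length in GENCODE release 29 it did so in 10.2% of 186. The counts therefore need not be reads. The median locus length was 12503 bases for LINC transcripts and 5734.5 bases for all.

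The 10 LINC transcripts with the smallest adjusted p in the authors' deposited table all had a count of 0 in 1 library. LINC01122-205 had a log2 fold change of -16.42 (the authors' adjusted p = 1.13e-58) at listed values of 0.00623 and 0.347, and LINC01122-201 one of -16.00 (the authors' adjusted p = 1.28e-55) at 0.0240 and 0.261. In the other direction LINC01184-223 had 14.13 (the authors' adjusted p = 1.54e-43) at 0.373 and 0.00737. LINC00857-201, LINC00472-213, LINC01572-216, LINC02163-202, LINC00174-211, LINC00869-210 and LINC00882-273 completed the 10, and of all 10 LINC00857-201 alone had a mean of at least 1. By contrast, LINC02593-203, with the second largest gene value, had a log2 fold change of 0.65 (the authors' adjusted p = 0.190), and LINC01578-202 one of -0.0094 (the authors' adjusted p = 1).

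**Figure D5:**
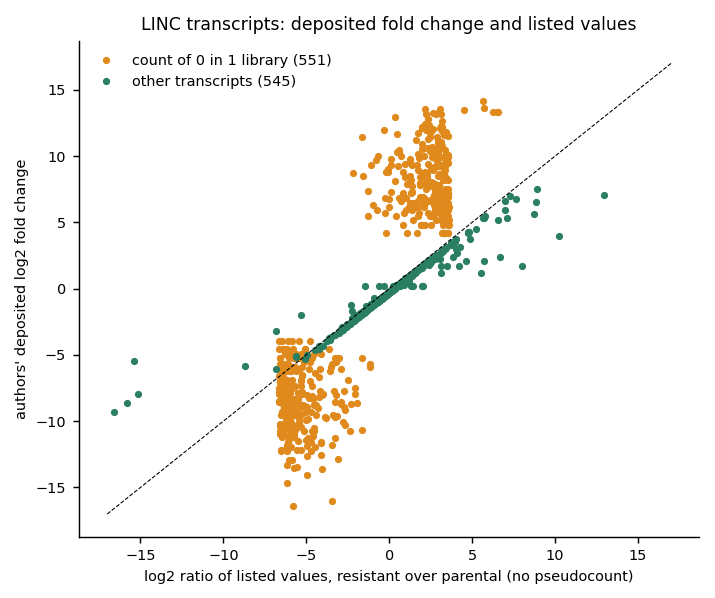
The authors' deposited log2 fold change against the log2 ratio of listed values (resistant over parental, no pseudocount) for 1096 LINC transcripts; the dashed line marks equal values. The 545 other transcripts (green) lie mostly along the line, and the 551 with a count of 0 in 1 library (orange) form separate clouds away from it.

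The table also holds other classes of long non-coding RNA. Of 631 genes with symbols ending in -AS1 to -AS9, 152 (24.1%) were expressed, 4 of them 2-fold or more higher and 6 lower, with a median log2 ratio of -0.0094. Of 75 genes ending in -DT, 24 (32.0%) were expressed, none higher and 1 lower (median 0.13). Of 59 host genes of small RNAs, 36 (61.0%) were expressed, with none past 2-fold (median -0.18). LINC genes had the smallest share expressed of these 4 classes and the largest share of transcripts with a count of 0, beside 41.3%, 30.0% and 27.8%. The median size of the log2 ratio was 0.44 for LINC genes and 0.32, 0.32 and 0.31 for the others, at 0.40 for all expressed genes; these differences were not tested.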

How the data were processed

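Total RNA of 1 parental and 1 olaparib-resistant SKOV3 library was depleted of ribosomal RNA according to the labels. HISAT2 and StringTie are named by the submitters' processing notes (the sources used here give no version), as is the build mm10, although the deposited identifiers and loci are human. GENCODE release 29 holds 649 of the LINC transcripts (GRCh38) by identifier, 86.6% with the same start and end, so loci are given on GRCh38. The authors deposited 1 normalized signal value per transcript and library, in a unit the header does not name, and, per the file headers, a log2 fold change, its p-value and the p-value after adjustment. Depth is unknown.

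Listed values were summed per gene and compared as log2(value + 1) with a mean of at least 1 and a 2-fold threshold in Python 3.11.15 with pandas 2.3.3. With 1 library per group no test was possible. The calculations were checked on simulated data. Alternatives were other pseudocounts (0.1 and 5), filters, a rescaling by the median ratio, the largest isoform only, and leaving out or setting to 0 certain transcripts. Text names the 12 LINC genes with the largest mean, the 10 highest and 10 lowest log2 ratios, the members with a value of a list of 26, and the 10 transcripts with the smallest deposited adjusted p. Other genes named for isoform shifts, chromosomes or neighbours were chosen after their values were seen. The members and lists were chosen with earlier results of these data known. A second deposited list of transcripts was not used.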

Additional observations from a re-analysis of the deposited data

How the results depend on the processing

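The counts of LINC genes past 2-fold are small and moved with the settings. With a pseudocount of 0.1, 10 genes were at least 2-fold higher and 8 lower (all expressed genes 16.6% and 7.53%), and with a pseudocount of 5 there were 0 and 0. With a mean of at least 5, 1 of 11 was higher and 2 lower (all genes 12.3% and 6.34%), and the median log2 ratio was -0.23. Dividing resistant values by the median ratio of 1.17 left 61 genes, of which 0 were higher and 5 lower (all genes 5.58% and 6.29%), with a median of -0.20. With the isoform of the largest mean alone, 2 of 42 genes were higher and 2 lower (all genes 12.1% and 7.94%), and the median was -0.11. LINC00963 (-0.85), LINC01569 (-0.96), LINC01089 (-0.57) and LINC01355 (0.35) were then under 2-fold. LINC00869 (1.04), LINC00857 (-1.83) and LINC00899 (-1.07) newly passed it. LINC01145 (1.09) passed it too, in an isoform with a mean below 1. Discordant transcripts are those whose deposited log2 fold change differs from the log2 ratio of values by more than 0.3, after the median difference of -0.28 over all transcripts is taken off. With discordant transcripts left out, 1 gene was higher and 2 lower (all genes 8.41% and 3.87%), and the median was -0.088. LINC01089 (-0.69) and LINC01355 (0.83) were then under 2-fold. With LINC transcripts that overlap another named gene left out, 1 of 59 was higher and 2 lower (all genes 8.49% and 4.36%). LINC00847 then turned to -0.079. The cause was not tested.

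The median lay below that of all expressed genes in each of these settings and with no filter (-0.0021 against 0.035) or values at a count of 0 set to 0 (-0.012 against 0.17). Of the 37 named genes the sign turned in 2 after rescaling (LINC00205 -0.042, LINC00888 -0.0032), 3 with the largest isoform alone (LINC00958 0.0032, LINC01503 0.053, LINC01578 0.26), 4 without discordant transcripts (LINC00205 -0.10, LINC00472 0.031, LINC00857 0.82, LINC00958 0.0032), 1 with values at a count of 0 set to 0 (LINC01503 0.035) and 1 without overlapping transcripts (LINC00847). LINC00963, LINC01569 and LINC01355 kept their sign in every setting run. LINC01089 kept its sign in the others, and had no value once overlapping transcripts were left out. Keeping a sign is weak support, because several settings could not turn it. A pseudocount changes the size of a ratio but not its sign, and a filter on the mean leaves a gene's ratio unchanged. LINC00963, LINC01569 and LINC01355 have no transcript that overlaps another named gene, so leaving those out changed nothing for them. No paired analysis was possible because each group has 1 library, and for the same reason no replicate was left out. With unknown depth, values below 0.1 cannot be ordered.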
